A study of Mus musculus with 6 samples.

Results

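The nuclear factor I (NFI) family of transcription factors is encoded by 4 genes in the mouse, *Nfia*, *Nfib*, *Nfic* and *Nfix*. They were taken by gene name from the expression table, where they are 4 of 55487 genes. The selection rule uses names and no measured value, although the family was picked with earlier results of these data known. RNA-seq was performed on dental epithelium of M1, the first molar of the lower jaw, at PN2.5 (postnatal day 2.5), when Hertwig's epithelial root sheath begins to form, with 3 control libraries (genotype *Wnt10a* fl/fl) and 3 cKO libraries (genotype *K14-Cre;Wnt10a* fl/fl). Both groups carry the floxed *Wnt10a* alleles, and the cKO mice also carry a Cre recombinase under the keratin 14 promoter, which is active in epithelial cells and not in the dental mesenchyme. Each library is a pool of dental epithelium from 4 molars according to the series design text (the methods give a different number), so a value is a mean over the pool. Values of single libraries are given in the order of replicates 1, 2 and 3, numbered as in the sample titles. The deposited columns of these replicates are numbered 1, 3 and 4 in both groups. The values are TPM, each gene's share of all transcripts after division by length, scaled to a fixed sum. This unit keeps no sequencing depth, so how many reads stand behind a value is unknown and counting error cannot be stated.

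NFI proteins bind DNA as dimers of any of the family members at a palindrome built from the letters TTGGC, and each can activate or repress its targets. *Nfic* is the member known for the tooth. Mice without it form crowns but short, abnormal roots, and NFIC is placed upstream of the odontoblast and Hedgehog regulators *Sp7*, *Klf4* and *Hhip*. Its role in root formation is described mainly in the dental mesenchyme and odontoblasts, and less in the root sheath. *Nfia*, *Nfib* and *Nfix* are best known from the developing brain, and *Nfib* and *Nfix* also from lung, muscle and hair follicle stem cells.

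The targeted gene and the tissue were checked first. A gene was called where its unadjusted limma p was below 0.05 and its group means differed by more than 20%. Of all genes tested, 4.02% were called, 2.47% as lower in cKO and 1.55% as higher. All 552 genes with a limma p below 0.05 also met the 20% criterion. Their share, 4.02%, is below what a threshold of 0.05 passes on average without any difference between groups. *Wnt10a* ranged from 51.2 to 57.9 TPM among the controls and from 21.8 to 32.2 TPM among the cKO. The epithelial keratin *Krt14* was at 2190 to 2773 TPM in the 6 libraries, and the mesenchymal collagen *Col1a1* was at 1795 to 3127 TPM, so the libraries also hold transcripts of dental mesenchyme. The summed level of 13 dental mesenchyme markers was 7082, 4531 and 3547 TPM (control 1 to 3) against 4555, 5183 and 4709 TPM (cKO 1 to 3), groups that overlapped, and 0 of the 12 markers tested were called. The 12 dental epithelium markers, mostly the enamel gene *Amelx*, summed to 205803 to 247805 TPM among the controls and 101984 to 216346 TPM among the cKO, with 0 called. Their log2 fold changes were below 0 for 11 of 12, with a median of -0.22 beside -0.07 over all genes tested. For 1 of them, the enamel gene *Ambn*, all cKO libraries were below all control libraries, as for 6.13% of all genes tested. Endothelial markers summed to 71.7 to 117 against 59.6 to 87.7 TPM with 1 of 6 called lower and 6 of 6 log2 fold changes below 0 (median -0.49), leukocyte markers to 26.2 to 39.5 against 25.4 to 33.1 TPM, Schwann cell markers to 26.2 to 31.1 against 19.5 to 29.0 TPM and skeletal muscle markers to 5.46 to 6.11 against 3.6 to 7.23 TPM. The sums of the erythroid markers did not overlap, at 1326 to 1978 against 1161 to 1282 TPM, and 1 of 5 tested was called lower. Taken singly, 1 of the 5 had all cKO libraries below all control libraries, as did 6.13% of all genes tested. The part of these cell types in the NFI values was not tested. In bulk samples, fewer cells of a type and less RNA per cell cannot be told apart.

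The 4 genes lie at separate places in the genome (GRCm38, GENCODE M21 annotation). *Nfia* (ENSMUSG00000028565) is on chromosome 4 from 97772734 to 98118874 on the plus strand, and *Nfib* (ENSMUSG00000008575) is on chromosome 4 from 82290173 to 82705750 on the minus strand. *Nfic* (ENSMUSG00000055053) is on chromosome 10 from 81396186 to 81455635, and *Nfix* (ENSMUSG00000001911) is on chromosome 8 from 84699876 to 84800344, both on the minus strand. All have long transcripts, and in base composition they form a pair of pairs. The longest annotated transcript has 9526 bases and a GC content of 42.7% for *Nfia*, 9116 bases and 43.3% for *Nfib*, 6237 bases and 57.4% for *Nfic*, and 5476 bases and 57.1% for *Nfix*. The median over the 12188 protein-coding genes tested was 3404.5 bases and 49.95%, so that *Nfia* and *Nfib* are longer and poorer in GC, and *Nfic* and *Nfix* are longer and richer in GC, than the median gene.

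Promoter sequence was at hand from RefSeq (GRCm38.p6) for 3 of the 4 genes, *Nfia*, *Nfic* and *Nfix*, in 6 windows of 250 bases before an annotated start. One window of each is shown because the base composition of the genes is set beside their values below, and because the letters of NFI and Wnt-responsive factors can be looked for in them. For *Nfix* the window with the highest GC content outside annotated exons is given. The windows are chr10:81427174-81427423 on the minus strand for *Nfic*, chr8:84775829-84776078 on the minus strand for *Nfix* and chr4:97581693-97581942 on the plus strand for *Nfia*, each written 5′ to 3′ on the strand of its gene, and capitals mark the letters GGGCGG (GC box), TTGGC (1 arm of an NFI site) or CTTTGAT (TCF/LEF) on either strand.
*Nfic*: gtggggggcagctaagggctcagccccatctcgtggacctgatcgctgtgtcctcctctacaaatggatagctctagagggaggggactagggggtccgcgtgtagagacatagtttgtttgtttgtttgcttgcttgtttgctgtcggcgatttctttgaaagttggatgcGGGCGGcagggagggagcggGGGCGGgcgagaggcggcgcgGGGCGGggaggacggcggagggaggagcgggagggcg
*Nfix*: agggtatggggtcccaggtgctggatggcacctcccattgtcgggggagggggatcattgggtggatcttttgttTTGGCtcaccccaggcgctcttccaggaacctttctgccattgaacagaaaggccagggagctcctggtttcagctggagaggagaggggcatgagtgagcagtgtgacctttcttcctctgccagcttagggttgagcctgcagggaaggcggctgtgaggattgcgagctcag
*Nfia*: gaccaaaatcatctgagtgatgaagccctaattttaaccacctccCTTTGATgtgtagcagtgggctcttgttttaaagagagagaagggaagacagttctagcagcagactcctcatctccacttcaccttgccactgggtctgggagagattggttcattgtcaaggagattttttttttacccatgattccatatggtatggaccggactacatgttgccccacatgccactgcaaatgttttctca
The *Nfic* window has a GC content of 63.2% and 3 GC boxes, which do not overlap. The *Nfix* window has 58.4% GC and 1 TTGGC, and the *Nfia* window has 44.8% GC and 1 CTTTGAT. The *Nfix* windows not shown have 42.0% GC and 1 TTGGC, 52.4% GC and 2 GC boxes, and 49.2% GC and none of the marked letters. The high GC content of the *Nfix* window shown thus comes from the choice. Of all 32851 windows of this length, 32.7% hold GGGCGG, 41.5% hold TTGGC and 3.21% hold CTTTGAT. The full NFI palindrome, TTGGC and its reverse complement around a spacer of 5 bases, was in 0.0365% of all windows and the TATA box (TATAAA) in 12.4%, and neither was in the 6 windows of the NFI genes. None of the windows shown adjoins the gene start of the annotation given above. On that annotation the *Nfic* and *Nfix* windows lie inside their genes, and the *Nfia* window lies apart from its gene, upstream of it. They stand before RefSeq starts and need not be the promoters in use. TPM are given per gene, so which of these starts was used in the molar was not measured, and a match is a run of letters only.

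All 4 NFI genes were detected in each of the 6 libraries, and their order was the same in 6 of 6: *Nfix* was highest, then *Nfic*, *Nfib* and *Nfia*. *Nfix* was at 40.9, 38.0 and 35.0 TPM (control 1 to 3) against 21.5, 28.8 and 35.0 TPM (cKO 1 to 3). *Nfic* was at 20.6, 17.9 and 17.7 TPM (control 1 to 3) against 8.88, 11.5 and 16.9 TPM (cKO 1 to 3). For both genes cKO replicates 1 and 2 were well below the control libraries, while cKO replicate 3 stood beside them. *Nfib* was at 5.36, 7.51 and 2.98 TPM (control 1 to 3) against 6.0, 9.82 and 2.72 TPM (cKO 1 to 3), and *Nfia* was at 4.58, 4.35 and 2.13 TPM (control 1 to 3) against 2.40, 2.86 and 2.32 TPM (cKO 1 to 3). For *Nfib* and *Nfia* the lowest libraries were replicate 3 of both groups, for *Nfia* by a small margin among the cKO. For *Nfia* control replicates 1 and 2 stood above the other 4 libraries. Among the 13719 genes tested (mean of at least 1 TPM), 79.9% had a lower control mean than *Nfix*, 62.4% a lower one than *Nfic*, 29.6% a lower one than *Nfib* and 22.3% a lower one than *Nfia*. Over all 6 libraries *Nfix* (21.5 to 40.9 TPM) did not overlap *Nfic* (8.88 to 20.6 TPM), whereas the range of *Nfib* (2.72 to 9.82 TPM) overlapped those of *Nfic* and of *Nfia* (2.13 to 4.58 TPM). The median gene had a control mean of 11.96 TPM, between *Nfic* and *Nfib*.

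**Figure D1:**
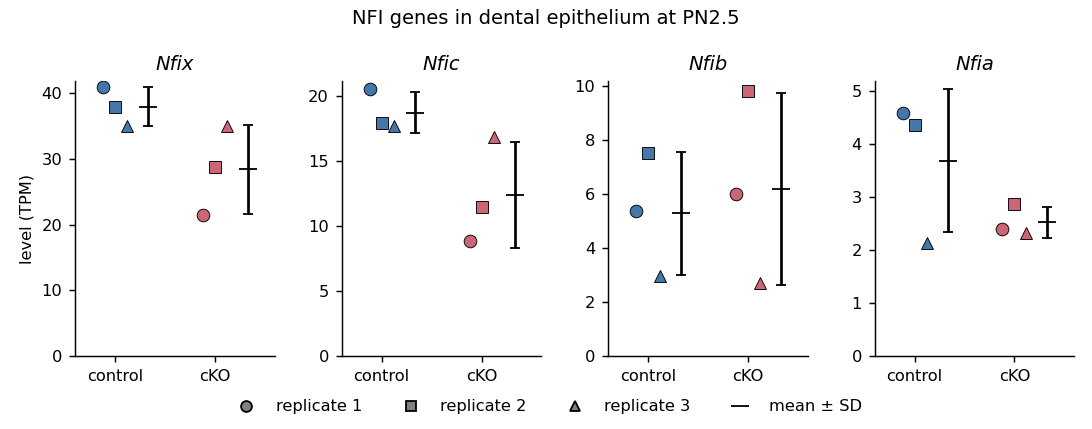
Level of each NFI gene (TPM, linear axis from 0) in the 3 control and 3 cKO libraries, with the marker shape giving the replicate number and the bar the mean ± SD (n = 3). The cKO points of *Nfix* and *Nfic* spread downward from the control level, with replicate 3 at the top, while replicate 3 is the lowest point of both groups for *Nfib* and *Nfia*.

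*Nfic*, the root formation gene of the family, had the largest fold difference of the 4 in the values as given, with *Nfia* close to it. After the length and GC correction described below, *Nfib* had the largest (log2 fold change 0.38, against -0.30 for *Nfic*). The mean of *Nfic* was 18.7 ± 1.59 TPM (SD, n = 3) in control and 12.4 ± 4.07 TPM (SD, n = 3) in cKO, 66.2% of the control mean. The log2 fold change (cKO against control, on the scale of log2(TPM + 1), which understates the change of low genes) was -0.60 with a standard error of 0.25 and an unadjusted p of 0.0435 by limma. It was the only NFI gene called. The criteria called 4.02% of all genes tested, 2.47% as lower in cKO and 1.55% as higher, and 1 of the 4 NFI genes. After Benjamini-Hochberg adjustment over all 13719 genes the limma p of *Nfic* was 1.00, and 2 genes in all, or 0.0146%, had an adjusted p below 0.05, neither of them an NFI gene. The cKO libraries of *Nfic* all lay below its control libraries (p = 0.1 by two-sided exact permutation, the smallest possible with 3 libraries a side), as for 6.13% of all genes tested, while the reverse held for 3.51%. The *Nfic* call was lost when any 1 library other than cKO replicate 3 was left out, which also leaves fewer libraries for the test. Without control replicate 1, 2 or 3 the log2 fold change was -0.53, -0.63 or -0.64 with a limma p of 0.131, 0.0802 or 0.0715. Without control replicate 2 or 3 the call was thus lost although the difference was no smaller. Without cKO replicate 1 or 2 the log2 fold change was -0.40 or -0.57 with a limma p of 0.140 or 0.107. Without cKO replicate 3, the library with the highest *Nfic* level of its group, the log2 fold change was -0.83 with a limma p of 0.00824. At that setting 6.93% of all genes tested were called.

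*Nfix*, the most abundant member, went the same way as *Nfic* with a smaller difference, which was not called. Its mean was 38.0 ± 2.94 TPM (SD, n = 3) in control and 28.4 ± 6.78 TPM (SD, n = 3) in cKO, 74.9% of the control mean, with a log2 fold change of -0.43 (standard error 0.21). The unadjusted p by limma was 0.0775 and the exact permutation p was 0.1. The cKO libraries were again all below the control libraries, but only by 0.01 TPM between control replicate 3 (35.02 TPM) and cKO replicate 3 (35.01 TPM). Without cKO replicate 3 the log2 fold change of *Nfix* was -0.59 with a limma p of 0.0272, which would be a call. At that setting 6.93% of all genes tested were called, against 4.02% with all libraries.

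*Nfia* and *Nfib* overlapped between the groups and were not called. *Nfia* had a mean of 3.69 ± 1.35 TPM (SD, n = 3) in control and 2.53 ± 0.291 TPM (SD, n = 3) in cKO, 68.5% of the control mean. The log2 fold change of *Nfia* was -0.37 with a standard error of 0.29 (exact permutation p = 0.4). Its wide control spread came from control replicate 3, and without that library the log2 fold change was -0.63 with a limma p of 0.0301. This would be a call, at a setting where 8.45% of all genes tested were called. *Nfib* had a mean of 5.28 ± 2.27 TPM (SD, n = 3) in control and 6.18 ± 3.55 TPM (SD, n = 3) in cKO, the only member with a higher cKO mean. Its log2 fold change was 0.13 with a standard error of 0.45 (exact permutation p = 0.8). The sign turned without control replicate 3, to -0.17, and without cKO replicate 2, to -0.23, so the data give no direction for *Nfib*.

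The summed NFI level was 71.4, 67.8 and 57.8 TPM (control 1 to 3) against 38.8, 53.0 and 56.9 TPM (cKO 1 to 3). The sum is mostly *Nfix* and *Nfic*, and its groups did not overlap. The means were 65.7 ± 7.02 TPM and 49.5 ± 9.55 TPM (SD, n = 3), a difference of -16.1 TPM (p = 0.1 by two-sided exact permutation, again the smallest possible). Once each library's dependence on transcript length and GC was removed, the difference was -5.15 TPM and the sums overlapped, with 53.2 TPM for control replicate 2 and 61.2 TPM for cKO replicate 3. After rescaling to protein-coding genes other than the enamel genes *Amelx* and *Ambn* the difference was -25.7 TPM. *Nfix* made up 57.9% of the sum in control and 57.1% in cKO, and *Nfic* 28.6% and 24.7%. The share of *Nfib* was 7.51%, 11.1% and 5.15% for the controls against 15.5%, 18.5% and 4.78% for the cKO, and the groups overlapped.

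Whether the members differed from each other in their change was tested for all 6 pairs on the difference of their log2 levels within each library. *Nfix* over *Nfic* was a ratio of 1.99, 2.12 and 1.98 for the controls against 2.42, 2.52 and 2.08 for the cKO. This ratio was the steadiest of the 6, and the difference in log2 fold change between the pair was 0.17 (two-sided exact permutation test, p = 0.2). *Nfic* over *Nfib* ranged more widely, with ratios of 3.84, 2.39 and 5.94 for the controls against 1.48, 1.17 and 6.19 for the cKO. The smallest ratios were those of cKO replicates 1 and 2 and the largest those of replicate 3 of both groups. The difference in log2 fold change between *Nfic* and *Nfib* was -0.73 (exact permutation p = 0.4). No pair passed the test, with exact p adjusted over the 6 pairs of 0.6 to 0.8, and with 3 libraries per group none could have reached 0.05.

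Across the 6 libraries *Nfic* and *Nfix* varied together, with a Pearson correlation of their log2 levels of 0.98. For the other pairs it was 0.50 (*Nfia* and *Nfib*), 0.47 (*Nfia* and *Nfic*), 0.55 (*Nfia* and *Nfix*), -0.42 (*Nfib* and *Nfic*) and -0.27 (*Nfib* and *Nfix*). These are descriptions over 6 libraries of 2 genotypes, in which both genes share each library's composition, and carry no test. By the same measure, the protein-coding genes (of 7030 with a mean of at least 10 TPM) most like *Nfic* were *Pygb*, *St3gal1* and *Itpr3*, with correlations of 0.995 to 0.997, and those most like *Nfix* were *Zbtb5*, *Parva* and *Nploc4*, with 0.996 to 0.998. Those most like *Nfib* were *Slc25a53*, *Apool* and *Zbtb21*, with 0.996 to 0.999, and among those most like *Nfia* were *Mia3* and *Dyrk1a*, each with 0.99. Of the 7030 genes, 144 (2.05%) had a correlation of at least 0.95 with *Nfic*, 155 (2.20%) with *Nfix*, 307 (4.37%) with *Nfib* and 104 (1.48%) with *Nfia*. *Nfic* and its companion *Itpr3*, an inositol trisphosphate receptor, show the shape these genes share. *Itpr3* was at 114, 103 and 89.8 TPM (control 1 to 3) against 41.3, 55.3 and 89.5 TPM (cKO 1 to 3), with cKO replicate 3 beside the control libraries. This likeness follows from picking *Itpr3* by its correlation with *Nfic* in the same libraries. Its log2 fold change was -0.78, beside -0.34 for *Pygb* and -0.54 for *St3gal1*.

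**Figure D2:**
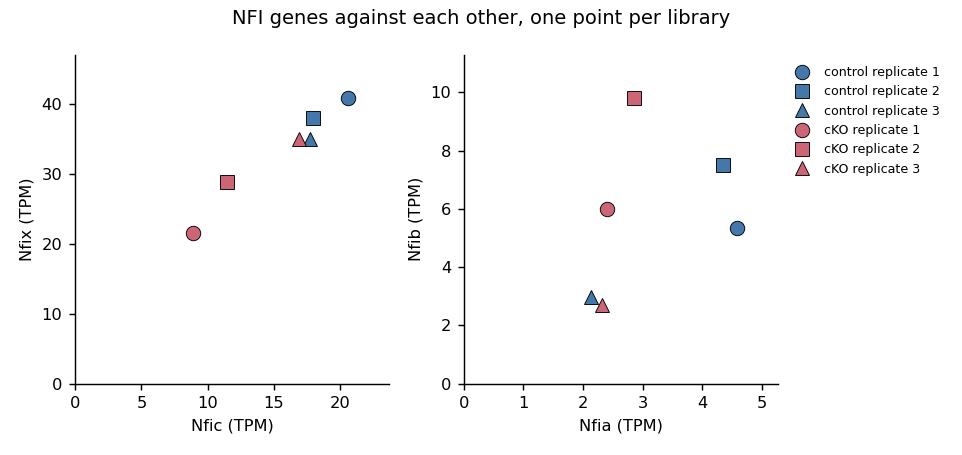
Level of *Nfix* against *Nfic* and of *Nfib* against *Nfia* (TPM, linear axes from 0), with 1 point per library, the colour giving the group and the shape the replicate number. *Nfic* and *Nfix* lie near a straight line that runs from cKO replicate 1 to control replicate 1, while *Nfia* and *Nfib* scatter, with replicate 3 of both groups at the low end.

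The levels of the NFI genes were set against the length and base composition of their transcripts. Over the 12188 protein-coding genes the libraries differed in how the level depended on both. In a joint fit of length and GC content, for each 10 percentage points of GC the log2 level deviated from the gene's mean by 0.01, -0.18 and 0.32 in control replicates 1, 2 and 3 and by -0.18, -0.22 and 0.25 in cKO replicates 1, 2 and 3. Replicate 3 of both groups thus favoured GC-rich transcripts, and these were the libraries in which GC-poor *Nfib* and *Nfia* were lowest. GC-rich *Nfic* and *Nfix* were highest in replicate 3 among the cKO libraries, and lowest in replicate 3 among the control libraries. In the same joint fit the deviation for each doubling of length was 0.08, 0.18 and -0.03 for the controls against -0.12, -0.06 and -0.05 for the cKO. These groups did not overlap, with a small gap between replicate 3 of each. Fitted on length alone, the deviation was 0.08, 0.21 and -0.09 for the controls against -0.09, -0.02 and -0.09 for the cKO, and the groups overlapped. Of 10 equal bins of genes by length, the bin of 5285 to 6786 bases holds *Nfic* and *Nfix*. In it the median log2 fold change was -0.22 with quartiles of -0.37 and -0.07, and all cKO libraries were below all control libraries for 11.5%. Of these 1219 genes, 5.09% had a lower log2 fold change than *Nfic* and 17.3% a lower one than *Nfix*. In the bin of longest genes (6789 to 40378 bases), which holds *Nfia* and *Nfib*, the median was -0.29 with quartiles of -0.48 and -0.12. There 38.9% had a lower log2 fold change than *Nfia* and 94.2% a lower one than *Nfib*. The median over all genes tested was -0.07.

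**Figure D3:**
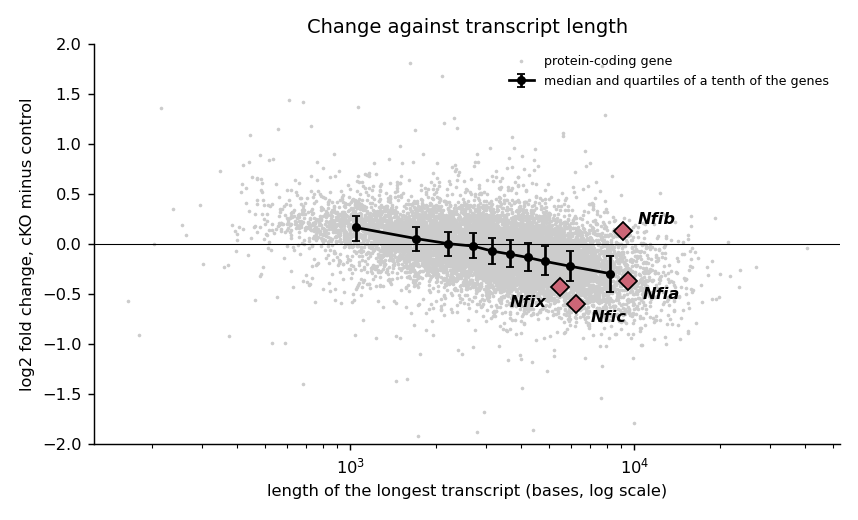
Log2 fold change (cKO minus control) of each protein-coding gene tested against the length of its longest transcript (bases, log axis), with the median and quartiles of 10 equal bins of genes by length in black and the NFI genes as diamonds. Genes beyond 2 on either side are not drawn. The median declines from 0.17 in the shortest bin to -0.29 in the longest, *Nfic* and *Nfix* lie below the lower quartile of their length, *Nfia* lies near the median and *Nfib* above the upper quartile.

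When each library's dependence on length and GC content was fitted and removed, the differences of *Nfic*, *Nfix* and *Nfia* shrank and that of *Nfib* grew. The *Nfic* level became 18.1, 14.6 and 17.8 TPM (control 1 to 3) against 11.6, 11.9 and 17.5 TPM (cKO 1 to 3). The log2 fold change was then -0.30 with a standard error of 0.19, and an unadjusted p of 0.152 by limma. Control replicate 2 now lay among the cKO values, and *Nfic* was no longer called. *Nfix* was at 36.6, 31.9 and 34.9 TPM (control 1 to 3) against 27.2, 29.8 and 35.9 TPM (cKO 1 to 3), a log2 fold change of -0.16 (standard error 0.14). *Nfib* was at 4.41, 4.35 and 4.74 TPM (control 1 to 3) against 6.65, 8.29 and 4.14 TPM (cKO 1 to 3), with a log2 fold change of 0.38 (standard error 0.23). The control libraries of *Nfib* came close together, and cKO replicates 1 and 2 stood above them. *Nfia* was at 3.74, 2.29 and 3.61 TPM (control 1 to 3) against 2.69, 2.27 and 3.70 TPM (cKO 1 to 3), a log2 fold change of -0.11 (standard error 0.23). None of the 4 was called after the correction, and each had an adjusted p of 0.999 by limma. The correction removes any difference that goes with length or GC content, from the genotype or from the library alike, and these cannot be told apart here.

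**Figure D4:**
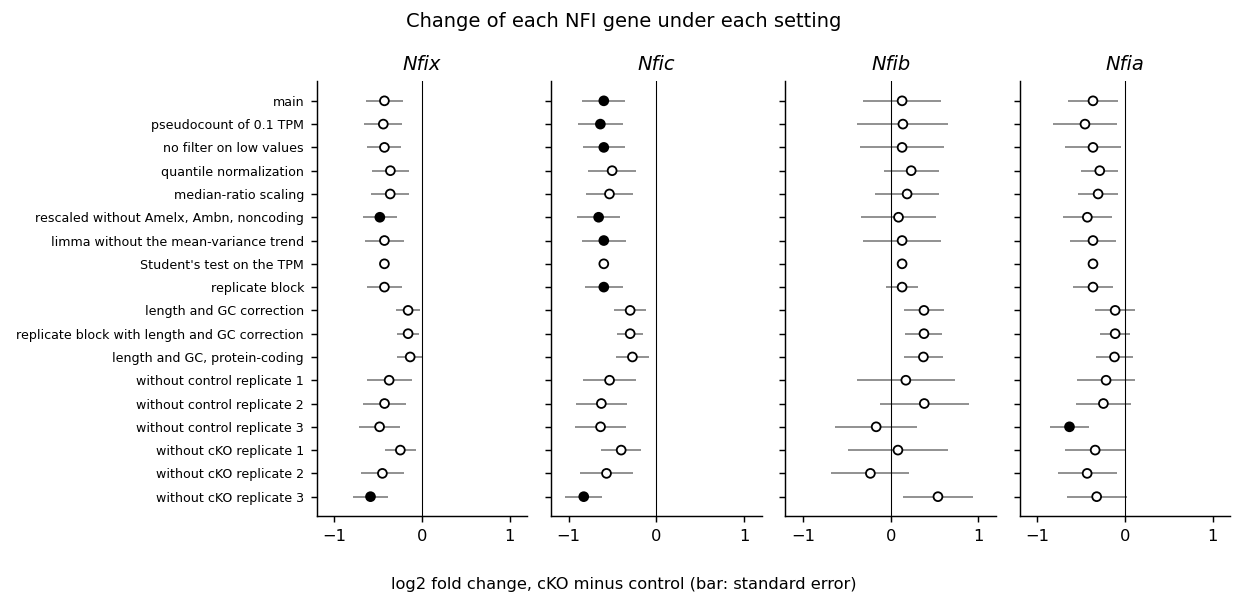
Log2 fold change (cKO minus control) of each NFI gene as reported and under 17 other settings, with bars for the standard error and filled points where the limma p is below 0.05 and the group means differ by more than 20%. The test on the TPM themselves has no standard error on this scale. *Nfic* is below 0 throughout, from -0.83 to -0.27, and is open in 11 of 17 settings, while *Nfib* crosses 0.

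The genes that act with NFIC in root formation were read from a list of 35, of which 32 were tested. *Gli2*, a transcription factor of the Hedgehog pathway, was the only one called, lower in cKO, and 0 were called higher, against 2.47% and 1.55% of all genes tested. Of the 32, 16 had a log2 fold change below 0 and 16 above, with a median of -0.04 beside -0.07 over all genes tested and a range of -0.58 to 0.27. *Gli2* was at 10.8, 11.6 and 7.55 TPM (control 1 to 3) against 5.75, 5.77 and 7.42 TPM (cKO 1 to 3), and was the only gene of the 32 whose groups did not overlap. Over all genes tested the cKO libraries were all below the controls for 6.13% and all above for 3.51%. The gap lay between control replicate 3 and cKO replicate 3 and was small. The log2 fold change of *Gli2* was -0.57 with a standard error of 0.23 and an unadjusted p of 0.0380 by limma (adjusted p = 1.00), and -0.26 with an unadjusted p of 0.130 after the length and GC correction. The number called was 0 without control replicate 1, control replicate 2 or cKO replicate 2, 5 without control replicate 3 and 2 without cKO replicate 3. At these settings 1.73%, 2.69%, 2.06%, 8.45% and 6.93% of all genes tested were called, in the same order.

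The other Hedgehog genes were not called. The ligand *Shh* had a mean of 149 ± 25.4 TPM in control and 130 ± 49.3 TPM in cKO (SD, n = 3), with a log2 fold change of -0.26. Its receptor *Ptch1*, itself a target of the pathway, was at 94.7 ± 30.4 and 66.3 ± 4.48 TPM, and the target *Gli1* at 81.3 ± 21.9 and 62.4 ± 2.46 TPM, with log2 fold changes of -0.46 and -0.35. After the length and GC correction these were -0.14 and -0.16, and that of *Shh* was -0.19. *Hhip*, which binds and dampens Hedgehog ligands and is described downstream of NFIC, was at 4.27, 2.47 and 1.11 TPM (control 1 to 3) against 2.75, 3.99 and 0.51 TPM (cKO 1 to 3). The *Hhip* groups overlapped, and the lowest value of each was replicate 3, as for *Nfib* and *Nfia*. Of the genes described downstream of NFIC in odontoblasts, *Klf4* was at 82.8 ± 25.6 and 92.0 ± 24.8 TPM and *Sp7*, the osteoblast and odontoblast factor osterix, at 18.4 ± 4.63 and 22.4 ± 6.57 TPM, log2 fold changes of 0.17 and 0.26. *Dspp*, the dentin matrix gene, was at 912 ± 497 and 680 ± 220 TPM, a log2 fold change of -0.27. The control and cKO libraries overlapped for each of these genes.

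**Figure D5:**
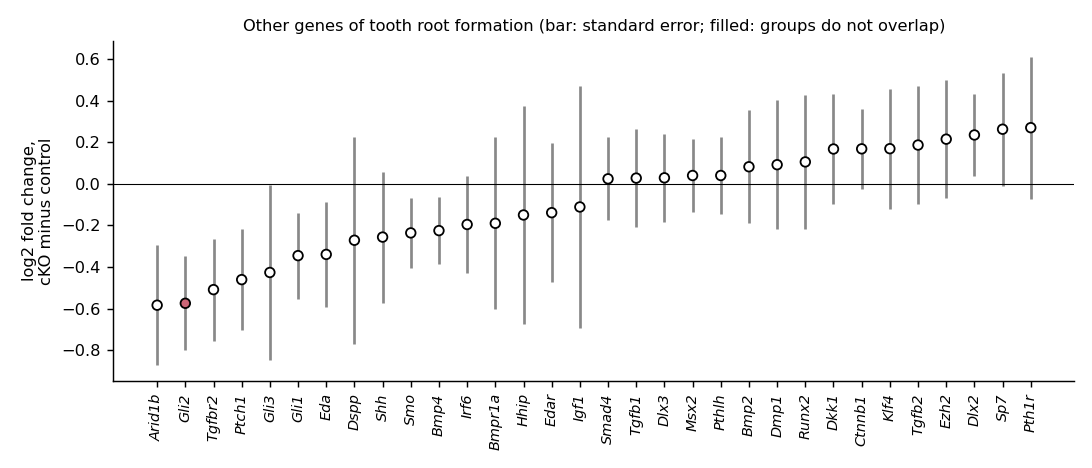
Log2 fold change (cKO minus control) of the 32 tested genes of the root formation list, in rising order, with bars for the standard error. The filled point is *Gli2*, the only gene of the list whose control and cKO libraries did not overlap (all cKO lower for 6.13% and all higher for 3.51% of all genes tested), and 16 genes lie on each side of 0.

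Other transcripts annotated within the NFI genes were low. On the opposite strand, 8 annotated genes overlap an NFI gene, of which 3 were listed at 0 in all libraries, and the highest value was 2.53 TPM (*G430095P16Rik*, within *Nfix*). *Lyl1*, which overlaps *Nfix*, was at 0.19 to 0.91 TPM, and *Gm16104*, antisense to *Nfic*, was at 0 to 1.12 TPM. *E130114P18Rik*, on the strand opposite *Nfia*, was at 0 to 0.2 TPM in 5 libraries and 1.46 TPM in cKO replicate 3. *Gm11266*, antisense to *Nfib*, was at 0.05 to 0.23 TPM. Whether counting used strand is not given in the sources used here, so reads of an NFI gene and of its antisense partner may not have been separated.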

How the data were processed

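RNA-seq was analysed in 6 libraries, 3 per group, grouped by the sample titles. The deposited table holds TPM, which the authors made by trimming the reads, aligning them with HISAT2 and estimating abundance; the submitters' processing notes name StringTie and the methods RSEM. The methods name FPKM, but the TPM of a library add up to 983952 at the lowest and 993946 at the highest, near the constant total of that unit. Genome build and annotation are not given in the sources used here. Of the gene identifiers, 99.4% were found in GENCODE M21.

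Genes averaging 1 TPM or more (13719) entered limma 3.58.1 (R 4.3.3; lmFit, eBayes with trend) on log2(TPM + 1), with Benjamini-Hochberg adjustment over all of them. Single values were compared by exact two-sided permutation (scipy 1.17.1). The method was tested on simulated data. For the length and GC correction, the difference between each gene's level in a library and its mean over all libraries was fitted, over 13707 genes, by natural splines (4 degrees of freedom) of the longest transcript's length and GC content. Figures were drawn with matplotlib 3.10.9.

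The NFI genes, the lists and the tests were chosen with earlier results of these data known. Named genes were the NFI genes, *Wnt10a*, genes of the root formation list that were called or did not overlap, 7 of that list chosen for their role, the 3 genes most like each NFI gene (1 of which is not reported here), and overlapping genes. *Krt14*, *Col1a1*, *Amelx*, *Ambn* and the further values of *Itpr3* were chosen after their values were seen. Nothing says that same-group libraries came from separate litters, so p-values measure the spread between these pools. Alternatives were another pseudocount, no low-value filter, quantile normalization, median-ratio scaling, rescaling to the protein-coding genes other than *Amelx* and *Ambn*, limma without trend, Student's test, the replicate block, the length and GC correction and leaving out each library. The correction on protein-coding genes was added after the data were seen. Other assays were not analysed here.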

Additional observations from a re-analysis of the deposited data

How the results depend on the processing

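Of the 17 alternatives, *Nfic* kept its direction in 17 and its call in 6, with log2 fold changes of -0.83 to -0.27 (-0.83 to -0.40 with 1 library left out) and an adjusted limma p of 0.507 to 1. Besides the libraries named above, the call was lost under quantile normalization (-0.50), median-ratio scaling (-0.53), Student's test (-0.60), the length and GC correction (-0.30), the same on protein-coding genes (-0.27) and the correction with the replicate block (-0.30). *Nfia* stayed below 0 in 17 (leave-one-out -0.63 to -0.22) and was called only without control replicate 3. *Nfix* also stayed below 0 in 17 (leave-one-out -0.59 to -0.25). It was called without cKO replicate 3 and after rescaling to the protein-coding genes other than *Amelx* and *Ambn* (-0.48). After that rescaling the median of all genes was -0.12 and 5.99% of all genes tested were called. *Nfib* turned to -0.17 and -0.23 without control replicate 3 and cKO replicate 2 (leave-one-out -0.23 to 0.54). The summed difference was -25.7 TPM after rescaling, -5.15 TPM after the correction and -4.39 TPM with it on protein-coding genes (leave-one-out -20.0 to -10.7 TPM). The pseudocount, filter, test and block do not enter this sum.

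The genes called numbered 552 (213 higher, 339 lower). They were 940 without the low-value filter, 1315 under the block, 1110 with block and correction, and 204 to 1159 with 1 library left out. The split was 324 higher and 325 lower after quantile normalization, 104 and 652 after rescaling, and 334 and 285 after the correction. Genes with an adjusted p below 0.05, 2 as reported, numbered 4 with a pseudocount of 0.1 TPM, 4 after quantile normalization, 4 under the block, 1 without the filter, 1 with block and correction, 0 after rescaling, by Student's test or after correction on protein-coding genes, and 2 to 9 with 1 library left out. Of the root formation list, 1 was called as reported, 0 after quantile normalization, Student's test or either correction, 3 after rescaling, 2 with block and correction, and 0 to 5 with 1 library left out. The causes were not tested.

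Same-numbered libraries deviated from their group means with correlations across genes of -0.08, 0.29 and 0.40. Of the control libraries, 2 of 3 correlated best with the cKO library of their number. The series design and the methods speak of pairs without saying what pairs them. The deposited columns carry the same numbers in both groups, with number 2 missing from each. The first principal component (43.1% of the variance) set each cKO library nearest to the control library of its number, at -3.98 and -2.36, -53.5 and -34.1, and 49.1 and 44.8. The main test left the numbers out, because nothing says what they pair and the correlation of replicate 1 was -0.08. Whether the libraries are paired is not known. With the replicate block *Nfic* had a log2 fold change of -0.60 (an unadjusted p of 0.0293 by limma) and *Nfix* of -0.43 (an unadjusted p of 0.0679). TPM hold no depth, so what depth limits is unknown.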
